A study of Mus musculus with 19 samples.

Results

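MicroRNAs bound to tagged Ago2 were compared between parvalbumin (PV) interneurons and Camk2a neurons of the mouse neocortex at postnatal day 56. The comparison used the 2 PV libraries and the 3 Camk2a libraries of a series of 19, chosen by their labels, and covered all 528 miRNA names of the deposited table. Both kinds of library came from anti-Myc immunoprecipitates of neocortex. Each PV library pooled 4 tissues of C57BL/6 & 129 background, and each Camk2a library came from 1 tissue of C57BL/6 & BALB/c background. Strain and pooling therefore changed together with the cell class, and their parts in any difference cannot be told apart from that of the cells. Gad2 cells (3 libraries) and somatostatin (SST) cells (2 libraries), anti-Myc, had the strain background and pooling of the PV libraries, and whole neocortex (3 libraries, anti-Ago2) had those of the Camk2a libraries. The allele that carries the tag and the driver lines are not given in the labels. The labels do not say whether replicates are from different animals, so p-values measure only the spread between these libraries, which may be partly technical.

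Ago2 is the protein that holds a mature miRNA and guides it to messenger RNAs, and a Myc tag on Ago2 in one cell class lets the miRNAs of that class be pulled out of whole tissue. The bases from 2 to 8 of the miRNA, the seed, do most of the pairing to targets, so miRNAs with the same seed form a family. PV interneurons are fast-firing GABAergic cells that include basket and chandelier cells, and Camk2a is a gene of excitatory projection neurons. Values are reads per 1000000 miRNA reads (RPM), so each is a share of a library's miRNA pool, and fewer tagged cells or less RNA per cell cannot be told apart in it. The PV libraries held 10739153 and 11438142 reads and the Camk2a libraries 10309027, 12824712 and 10572639, so depth was similar and 3 reads stood at 0.234 to 0.291 RPM. Such a floor covers counting error only, since PCR reads are not independent molecules.

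The sequences that carry the main differences are the mature miRNAs below, from RefSeq (GRCm38.p6), written 5′ to 3′ with the seed in capitals. The first set holds miRNAs that were higher in PV cells and shows the families of miR-34, miR-130/301 and miR-30.
miR-34a: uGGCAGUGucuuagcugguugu
miR-34b-5p: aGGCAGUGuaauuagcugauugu
miR-301a: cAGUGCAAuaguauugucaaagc
miR-130b: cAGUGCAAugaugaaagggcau
miR-130a: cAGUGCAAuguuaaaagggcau
miR-384-5p: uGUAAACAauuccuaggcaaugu
miR-30e: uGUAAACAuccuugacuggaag
miR-30c: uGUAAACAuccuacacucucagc

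The second set holds miRNAs that were lower in PV cells, among them the pairs miR-221 and miR-222, miR-132 and miR-212-3p, and miR-100 and miR-99a, each with one seed. The seed of miR-27b is that of miR-128 moved by 1 base.
miR-128: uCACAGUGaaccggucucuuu
miR-27b: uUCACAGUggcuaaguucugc
miR-221: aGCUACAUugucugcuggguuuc
miR-222: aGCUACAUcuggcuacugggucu
miR-551b: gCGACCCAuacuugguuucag
miR-31: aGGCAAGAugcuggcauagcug
miR-137: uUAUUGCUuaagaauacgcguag
miR-873: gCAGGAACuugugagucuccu
miR-132: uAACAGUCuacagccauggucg
miR-212-3p: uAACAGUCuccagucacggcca
miR-100: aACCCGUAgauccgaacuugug
miR-99a: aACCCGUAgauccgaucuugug

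The third set is the miR-29 family, shown because miR-29b, which passed, shares its seed with 2 abundant members that did not. miR-29a and miR-29b have 18 of 22 bases equal.
miR-29b: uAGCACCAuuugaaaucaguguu
miR-29a: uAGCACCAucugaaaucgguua
miR-29c: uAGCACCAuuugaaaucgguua

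The pool of PV cells was led by miR-124 and miR-29b, and that of Camk2a cells by miR-124 and miR-128. miR-124, the most abundant miRNA of brain neurons, stood at 362740 and 321620 RPM in PV libraries, against 184220, 224070 and 205420 RPM in Camk2a libraries. It was 1.68-fold higher in PV cells (34.2% ± 2.91 of reads, SD, n = 2, against 20.5% ± 1.99 in Camk2a cells, SD, n = 3; limma adjusted p = 0.00151). miR-29b, a miRNA that accumulates as neurons mature, stood at 161740 and 160100 RPM in PV libraries, against 98916, 76374 and 101010 RPM in Camk2a libraries. It was 1.76-fold higher in PV cells (limma adjusted p = 0.000967). Both PV libraries lay above all Camk2a libraries for these 2 miRNAs. The PV pool was also narrower: 2 or 3 miRNAs made up 50% of reads in PV libraries, against 4 in each Camk2a library, and 32 and 34 miRNAs made up 90% in PV libraries, against 37 to 39 in Camk2a libraries.

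miR-128 was the largest difference of the comparison. This miRNA limits the excitability of neurons in mice and lies in introns of R3hdm1 (GRCm38 chr1:128202361-128202430) and Arpp21 (chr9:112118636-112118711). It stood at 1778 and 1997 RPM in PV libraries, against 170460, 146680 and 143240 RPM in Camk2a libraries. It was 81.2-fold lower in PV cells (log2 change -6.34 ± 0.22 SE, limma adjusted p = 6.01e-15), and held 0.189% ± 0.0155 of PV reads and 15.3% ± 1.48 of Camk2a reads. Since values are shares, a lower share of miR-128 goes with a higher share of the rest. With each library scaled to its total without miR-128, the log2 change of miR-124 was 0.51 (adjusted p = 0.0232) and that of miR-29b 0.58 (adjusted p = 0.0129).

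Across all tested names the 2 classes differed widely. limma on log2(deposited value + 1), with p adjusted by Benjamini and Hochberg over 522 tested names, passed 229 (43.9%) at an adjusted p under 0.05. Of these, 112 (21.5%) were higher and 117 (22.4%) lower in PV cells, and 188 (36%) differed by 2-fold or more. The PV and Camk2a libraries did not overlap for 373 names (71.5%), called or not. The names called higher held 64.67% and 61.3% of reads in PV libraries, against 33.53% to 36.64% in Camk2a libraries. The names called lower held 6.74% and 8.04% in PV libraries, against 32.3% to 35.2% in Camk2a libraries. Without miR-128 they held 6.56% and 7.84% in PV libraries, against 17.63% to 18.33% in Camk2a libraries. The median log2 change of all tested names was 0.11. The balance of higher and lower calls moved with the scaling: of the calls 48.9% were higher, against 41.8% of 237 with TMM factors (99 higher, median 0.00) and 38.5% with totals without miR-128 (94 higher, 150 lower, median -0.05).

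**Figure D1:**
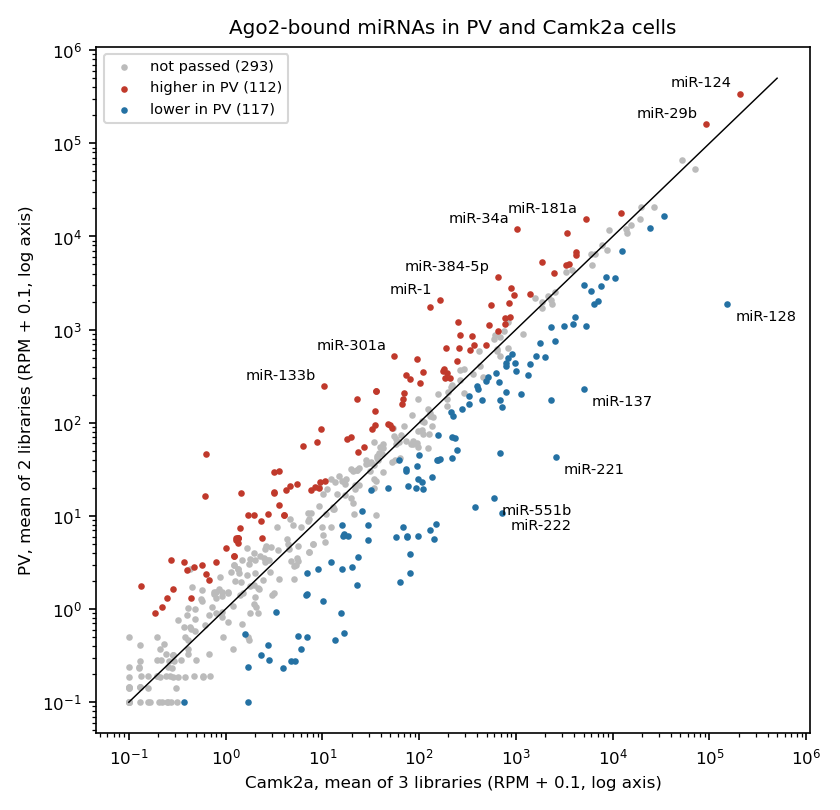
Mean level of each tested miRNA in PV cells (vertical axis, 2 libraries) against Camk2a cells (horizontal axis, 3 libraries), both in RPM plus 0.1 on log axes, with the line of equal level. Red points (112) were higher and blue points (117) lower in PV cells, grey points did not pass, and miR-128 lies farthest below the line.

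Of the 109 names that passed, averaged 100 RPM or more across both classes and had no overlap of libraries, 52 were higher and 57 lower in PV cells, and the 12 of highest and 12 of lowest change are described first. The largest increases were those of miR-133b, miR-133a and miR-1, miRNAs best known from skeletal and heart muscle. miR-133b stood at 234 and 258 RPM in PV libraries, against 10.6, 12.1 and 8.51 RPM in Camk2a libraries (log2 change 4.57 ± 0.25 SE, limma adjusted p = 8.62e-12). miR-133a stood at 1429 and 2053 RPM in PV libraries, against 123, 136 and 125.99 RPM in Camk2a libraries (3.74 ± 0.19, adjusted p = 3.55e-12). miR-1, which in mice is transcribed together with miR-133a, stood at 1849 and 2323 RPM in PV libraries, against 140.0, 172 and 181 RPM in Camk2a libraries (3.66 ± 0.27, adjusted p = 1.03e-09). All 3 were more than 12-fold higher in PV cells. Of the 5 tested names of the list of miR-1 and miR-133 4 were higher and 0 lower (median log2 change 3.66, against 0.11 over all tested names). Such list counts, here and below, stand beside 21.5% higher and 22.4% lower among all tested names. The reads of miR-133a and miR-133b, which differ little in sequence, may be shared by the authors' counting. All 3 were also higher in PV cells than in Gad2 cells and in SST cells of the same strain background. For miR-133a the mean was 1741 ± 441 RPM in PV cells, against 398 ± 44.5 RPM in Gad2 cells and 51.6 ± 1.08 RPM in SST cells (limma adjusted p = 2.8e-08 and 1.35e-13 for the 2 differences). In these 2 comparisons 21.3% (PV against Gad2) and 29.1% (PV against SST) of all tested names passed.

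The miR-34 family followed. miR-34a is switched on by p53 and represses genes of synapses and of cell division. It stood at 11772 and 11981 RPM in PV libraries, against 887, 1008 and 1208 RPM in Camk2a libraries. It was 11.6-fold higher in PV cells (log2 change 3.53 ± 0.28 SE, limma adjusted p = 2.22e-09) and reached 1.19% of the pool. miR-34b-5p (31.2 and 29.4 RPM in PV libraries, against 2.72, 3.74 and 3.97 RPM in Camk2a libraries) and miR-34c (75.4 and 95.6 RPM in PV libraries, against 8.24, 12.2 and 8.51 RPM in Camk2a libraries) were also higher. miR-34b and miR-34c share a transcript in mice, while miR-34a lies alone at chr4:150068454-150068555 with no host gene in GENCODE M21. Of 6 tested names of the miR-34 list 4 were higher and 0 lower (median 3.13). Against the other interneuron classes the members parted: miR-34a was also higher than in Gad2 cells (3902 ± 1173 RPM, adjusted p = 0.000114) and SST cells (1547 ± 103 RPM, adjusted p = 1.55e-07). miR-34c was lower in PV cells than in SST cells (85.5 ± 14.2 RPM, against 238 ± 7.54 RPM in SST cells, adjusted p = 0.00185).

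The miRNAs with the seed AGUGCAA, which includes regulators of growth signalling, were higher together. miR-301a, in an intron of Ska2, stood at 525 and 509 RPM in PV libraries, against 48.8, 52.3 and 65.5 RPM in Camk2a libraries (log2 change 3.23 ± 0.23 SE, limma adjusted p = 6.43e-10). miR-130b stood at 172 and 187 RPM in PV libraries, against 24.0, 16.9 and 26.6 RPM in Camk2a libraries (3.02 ± 0.34, adjusted p = 3.24e-07). The more abundant miR-130a, with 751 and 1009.9 RPM in PV libraries, against 275, 219.7 and 305 RPM in Camk2a libraries, rose by less (1.72 ± 0.22, adjusted p = 2.44e-06). The 3 lie on different chromosomes (11, 16 and 2), and they share the first 8 bases, as printed above. miR-301a did not differ from SST cells at the threshold (517 ± 10.9 RPM in PV cells, against 665 ± 143.4 RPM in SST cells, adjusted p = 0.362).

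The GUAAACA seed joins miR-384-5p to the miR-30 family, and 4 of these names were higher. miR-384-5p, which in rodents takes part in the lasting strengthening of synapses, stood at 3674 and 3661 RPM in PV libraries, against 696, 437 and 831 RPM in Camk2a libraries (log2 change 2.54 ± 0.31 SE, limma adjusted p = 9.27e-07). The other arm of its hairpin, miR-384-3p, stood at 1321 and 1066 RPM in PV libraries, against 254, 246 and 246 RPM in Camk2a libraries (2.25 ± 0.24, adjusted p = 2.29e-07). miR-384-5p and miR-30e share the first 8 bases, and 11 of 22 bases in all are equal when compared position by position without gaps. miR-30e stood at 10162 and 11576 RPM in PV libraries, against 2968, 2627 and 4419 RPM in Camk2a libraries (1.74 ± 0.27, adjusted p = 2.39e-05). It lies in an intron of Nfyc on chromosome 4. miR-30c, which has one hairpin in that intron and another on chromosome 1 and cannot be assigned to either, was also higher (2798 ± 268 RPM in PV cells, against 882 ± 233 RPM in Camk2a cells, adjusted p = 0.000233). miR-30a was higher by a log2 change of 0.73 (adjusted p = 0.0175). miR-30b (0.46, adjusted p = 0.127) and miR-30d (0.24, adjusted p = 0.416) did not pass. Of the 11 names of the miR-30 list 7 were higher and 0 lower (median 1.02; 5 higher with totals without miR-128, and 4 without PV replicate 2). At the threshold miR-384-5p did not differ from the other interneurons, with 3668 ± 9.35 RPM in PV cells, against 3581 ± 362 RPM in Gad2 cells (adjusted p = 0.97) and 3839.7 ± 1006 RPM in SST cells (adjusted p = 0.954).

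The rest of the 12 highest were miR-325, miR-486, miR-3107 and miR-433*. miR-325 stood at 355 and 608 RPM in PV libraries, against 85.4, 107 and 94.9 RPM in Camk2a libraries (log2 change 2.29 ± 0.35 SE, limma adjusted p = 1.61e-05). miR-486, known from red blood cells and muscle, stood at 224 and 217 RPM in PV libraries, against 36.7, 32.5 and 37.1 RPM in Camk2a libraries (2.64 ± 0.28, adjusted p = 1.92e-07). miR-3107 had nearly identical values in each library, so these 2 names count 1 measurement. miR-433*, the minor arm of a hairpin of the imprinted Dlk1-Dio3 domain, stood at 277 and 381 RPM in PV libraries, against 53.3, 95.9 and 67.7 RPM in Camk2a libraries (2.21 ± 0.26, adjusted p = 8.15e-07). In both arms this hairpin was higher, since miR-433 itself had 5339.7 ± 459 RPM in PV cells, against 1876 ± 357 RPM in Camk2a cells (adjusted p = 3.53e-06).

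**Figure D2:**
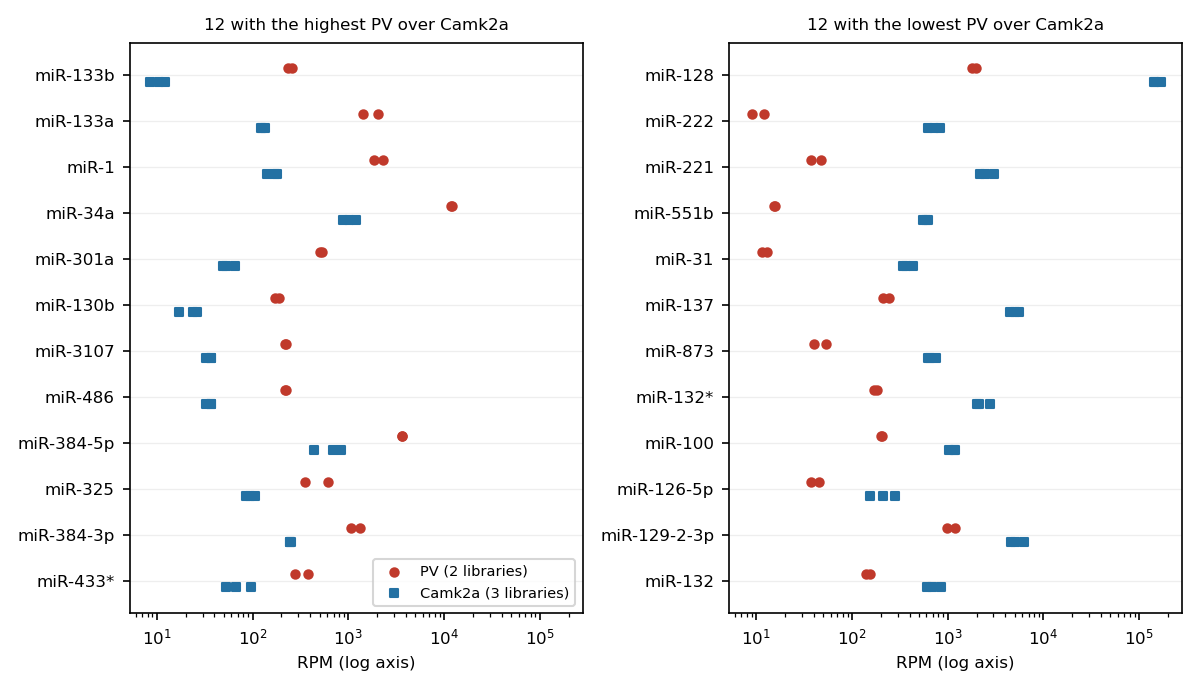
RPM of each library on a log axis for the 12 miRNAs of highest (left) and of lowest (right) change, PV libraries in red and Camk2a libraries in blue. The libraries of the 2 classes do not overlap for any of the 24, which the rule for choosing them required.

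Among the decreases, miR-221 and miR-222 came next to miR-128. They restrain cell cycle inhibitors and the growth factor receptor Kit in human cells, share a seed and lie within chrX:19146294-19146971. miR-221 stood at 47.5 and 37.8 RPM in PV libraries, against 3065, 2447 and 2199.5 RPM in Camk2a libraries, and was 60.0-fold lower (log2 change -5.91 ± 0.41 SE, limma adjusted p = 3.12e-10). miR-222 stood at 12.2 and 9.01 RPM in PV libraries, against 618, 834 and 727 RPM in Camk2a libraries, and was 68.1-fold lower (-6.09 ± 0.33, adjusted p = 8.62e-12). All 4 names of this list, both arms of both hairpins, were lower (median -5.41), or 2 with a mean of at least 10 RPM required. Between miR-221 and miR-222, position by position and without gaps, 11 of 23 bases are equal, 8 of them the first 8. Both miRNAs were also lower in PV cells than in Gad2 cells, where miR-221 had 210.2 ± 167 RPM (adjusted p = 0.000873). Neither differed from SST cells at the threshold, where miR-221 had 66.1 ± 7.16 RPM (adjusted p = 0.332).

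miR-551b, miR-31, miR-137 and miR-873 were lower in PV cells than in each of Camk2a, Gad2 and SST cells. miR-551b stood at 15.3 and 15.7 RPM in PV libraries, against 629.5, 587 and 548 RPM in Camk2a libraries, and was 37.7-fold lower (log2 change -5.23 ± 0.31 SE, limma adjusted p = 2.43e-11). Gad2 cells had 566 ± 96.7 RPM and SST cells 692 ± 18.9 RPM of it, so PV cells were lower by log2 changes of -5.17 (adjusted p = 2.79e-10) and -5.47 (adjusted p = 1.3e-10). The PV class was thus the one low group among the 4 anti-Myc neocortical groups for this miRNA. miR-31, which lies in a long noncoding transcript, stood at 11.6 and 13.03 RPM in PV libraries, against 344, 363 and 439 RPM in Camk2a libraries (-4.94 ± 0.27, adjusted p = 8.62e-12). It was lower than in Gad2 cells (81.3 ± 26.6 RPM, adjusted p = 2.07e-07) and SST cells (191 ± 11.6 RPM, adjusted p = 1.97e-09) too. miR-137, a regulator of presynaptic genes whose human locus is linked to schizophrenia, stood at 246 and 212 RPM in PV libraries, against 4991, 4469 and 5579.5 RPM in Camk2a libraries (-4.45 ± 0.26, adjusted p = 1.62e-11). Gad2 cells had 2220.5 ± 680.2 RPM and SST cells 2675 ± 447 RPM of miR-137 (adjusted p = 9.05e-09 and 5.25e-09). miR-873, in an intron of Lingo2, stood at 53.3 and 40.4 RPM in PV libraries, against 660.1, 755 and 622 RPM in Camk2a libraries (-3.86 ± 0.21, adjusted p = 8.62e-12). It had 288 ± 44.6 RPM in Gad2 cells and 327 ± 29.4 RPM in SST cells (adjusted p = 9.05e-09 and 7.13e-09).

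**Figure D3:**
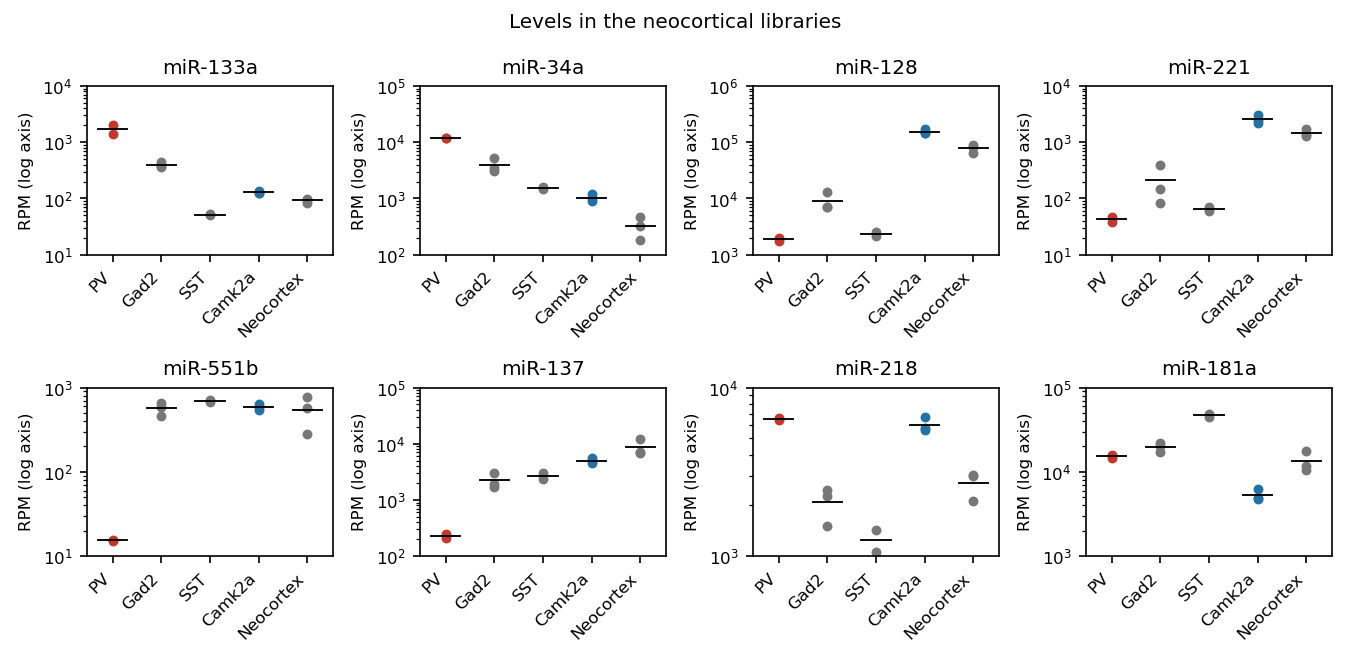
RPM of each library (points) and group mean (line) on log axes for 8 miRNAs in PV, Gad2, SST, Camk2a and whole neocortex. miR-551b is low only in the 2 PV libraries among those drawn, and miR-218 stands in PV libraries at the level of Camk2a libraries, above Gad2 and SST.

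The activity-regulated hairpins of miR-132 and miR-212, which respond to CREB and neurotrophins in neurons, were lower. miR-132* stood at 169 and 183 RPM in PV libraries, against 2108, 2739 and 2022 RPM in Camk2a libraries (log2 change -3.69 ± 0.28 SE, limma adjusted p = 1.03e-09). miR-132 stood at 141 and 156 RPM in PV libraries, against 686, 615 and 843 RPM in Camk2a libraries (-2.26 ± 0.24, adjusted p = 2.02e-07). miR-212-3p, with the seed of miR-132 and 17 of 22 bases equal, stood at 51.5 and 51.4 RPM in PV libraries, against 233, 216 and 297 RPM in Camk2a libraries (-2.26 ± 0.33, adjusted p = 1.2e-05). The hairpins lie within 1 noncoding host, at chr11:75173388-75173747, and all 4 of their names were lower. Of the 6 names of the activity list 4 were lower and 1 higher (median -2.12). The higher one was miR-134, a regulator of dendritic spine size in rodents, with 336 and 348 RPM in PV libraries, against 178, 224 and 185 RPM in Camk2a libraries (0.81, adjusted p = 0.0154). With TMM factors, with totals without miR-128, and without PV replicate 1, PV replicate 2 or Camk2a replicate 1, 0 of the list were higher.

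The last of the 12 lowest were miR-100, miR-126-5p and miR-129-2-3p. miR-100 stood at 203 and 205 RPM in PV libraries, against 1153, 1189 and 1038 RPM in Camk2a libraries (log2 change -2.46 ± 0.14 SE, limma adjusted p = 1.62e-11). miR-99a, equal to it in 21 of 22 bases, was lower as well (1106 ± 96.9 RPM in PV cells, against 3146 ± 313 RPM in Camk2a cells, adjusted p = 7.87e-07), and reads of the 2 may be shared in counting. miR-126-5p, from an endothelial hairpin in Egfl7, had 45.1 and 37.8 RPM in PV libraries, against 285, 153.1 and 210.6 RPM in Camk2a libraries (-2.34 ± 0.29, adjusted p = 1.38e-06). miR-129-2-3p, a miRNA of neurons, stood at 982 and 1191 RPM in PV libraries, against 6216, 5056 and 4625 RPM in Camk2a libraries (-2.28 ± 0.23, adjusted p = 1.21e-07).

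Most of the neuronal list was lower or did not pass. Of 26 names 4 were higher and 12 lower (median log2 change -0.91, against 0.11 over all tested names). Among all tested names 21.5% were higher and 22.4% lower. With a mean of at least 10 RPM required, 4 of the list were higher and 8 lower (median -0.44). Together the 26 names held 44.6% ± 3.17 of PV reads and 45.5% ± 1.05 of Camk2a reads. The 4 higher names included miR-124 and both arms of miR-384, and the lower ones miR-128, miR-137 and miR-129-2-3p, all given above. miR-9, made in neurons and their precursors, did not pass (65596 ± 2543 RPM in PV cells, against 52139 ± 1412 RPM in Camk2a cells, limma adjusted p = 0.0896). miR-138 (8090.4 ± 633 RPM in PV cells, against 7737 ± 1825 RPM in Camk2a cells, adjusted p = 0.816) and miR-153 (adjusted p = 0.868) did not pass either. miR-218, in introns of Slit2 and Slit3, had 6559 and 6444 RPM in PV libraries, against 5576, 6714 and 5721 RPM in Camk2a libraries, with overlap (adjusted p = 0.697). It was higher in PV cells than in Gad2 cells (6502 ± 81.1 RPM, against 2094 ± 508 RPM in Gad2 cells, adjusted p = 6.01e-06) and than in SST cells (1245 ± 270.2 RPM, adjusted p = 9e-08).

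Named miRNAs were also grouped by seed. Of 89 names looked up 77 matched a RefSeq mature sequence, and 17 seeds were shared by 2 or more of them. In 3 families every matched name was higher (the seeds of miR-34a, miR-301a and miR-30e), in 7 every one was lower, and 2 held names of both directions. The 7 lower families were those of miR-17, miR-132, miR-99a, miR-92a, miR-221, miR-7a and miR-27b. The unmatched names are not in these counts: miR-30b and miR-30d of the miR-30 family did not pass, as given above. Names were chosen partly by their change, so these counts describe the named miRNAs and are no test.

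Of the families, the list of miR-23, miR-24 and miR-27 had 6 of 11 names lower and 0 higher (median log2 change -1.51), and their summed level was 6195 ± 42.8 RPM in PV cells, against 18330 ± 2168 RPM in Camk2a cells. miR-27b stood at 1834 and 1946 RPM in PV libraries, against 6786, 5249.6 and 7363 RPM in Camk2a libraries (-1.76 ± 0.20 SE, limma adjusted p = 3.51e-07). miR-23b and miR-24 of the same cluster were lower too (-1.96 and -1.34, adjusted p = 4.87e-06 and 4.71e-05). These miRNAs were not different from the other interneurons at the threshold, with miR-27b at 1600.2 ± 157 RPM in Gad2 cells (adjusted p = 0.448) and 2219 ± 49.8 RPM in SST cells (adjusted p = 0.49).

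The miR-17-92 clusters, known for promoting proliferation, had 10 of 16 names lower and 0 higher (median -1.39). miR-92a had 5.89 ± 0.566 RPM in PV cells, against 58.2 ± 17.8 RPM in Camk2a cells (log2 change -3.23, limma adjusted p = 9.27e-07), and miR-17 had 5.35 ± 0.718 RPM in PV cells, against 29.6 ± 3.99 RPM in Camk2a cells (-2.45, adjusted p = 0.000111). miR-92b, outside these clusters but with the seed of miR-92a, had 8.16 ± 2.15 RPM in PV cells, against 150.2 ± 21.9 RPM in Camk2a cells (-4.20, adjusted p = 2.44e-06). The miR-135 list had 4 of 5 names lower and 0 higher (median -4.18), or 2 lower with a mean of at least 10 RPM required. Of these miR-135b had 5.56 ± 2.67 RPM in PV cells, against 141 ± 1.07 RPM in Camk2a cells (adjusted p = 2.55e-08). miR-7a, abundant in neuroendocrine cells, had 69.3 ± 12.98 RPM in PV cells, against 233 ± 88.5 RPM in Camk2a cells (adjusted p = 0.000295). PV cells were also lower than SST cells, which had 1064 ± 265 RPM of it (log2 change -3.93, adjusted p = 2.56e-08).

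The miR-181 family, which controls signalling thresholds in T cells and glutamate receptors in neurons, had 3 of 10 names higher and 0 lower (median 0.51). Of all tested names 21.5% were higher and 22.4% lower. miR-181a stood at 14453 and 15997 RPM in PV libraries, against 4899.9, 4743 and 6290.2 RPM in Camk2a libraries (log2 change 1.53 ± 0.21 SE, limma adjusted p = 4.45e-06). SST cells had still more, 46786 ± 2316 RPM, and PV cells were lower than these (adjusted p = 1.02e-05). miR-181c and miR-181b were also higher in PV cells than in Camk2a cells (1.32 and 0.72, adjusted p = 4.43e-05 and 0.000665).

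In the miR-29 and let-7 families not all members gave the same call. miR-29b was higher in PV cells as given above, while miR-29a did not pass, with 53317 ± 4033 RPM in PV cells, against 70482 ± 5941 RPM in Camk2a cells (log2 change -0.40, limma adjusted p = 0.0602), nor did miR-29c, with 20794 ± 569 RPM in PV cells, against 19791 ± 1693 RPM in Camk2a cells (0.07, adjusted p = 0.786). miR-29b and miR-29a are encoded within chr6:31062660-31063093, and miR-29b and miR-29c within chr1:195037040-195037634. The difference between the members' changes was not tested. With TMM factors miR-29a passed as lower (-0.54, adjusted p = 0.0265). It did so too with edgeR (-0.54, adjusted p = 0.0121) and DESeq2 (-0.50, adjusted p = 0.0115). The same held with a mean of at least 10 RPM required, only anti-Myc libraries, the replicate number as a block, and totals without miR-128. In the other settings it did not pass. Of the 21 let-7 names, which promote differentiation, 3 were higher and 4 lower (median -0.03), against 21.5% and 22.4% of all tested names. With totals without miR-128 1 was higher and 6 lower. let-7a did not pass (-0.40, adjusted p = 0.088), but passed as lower with TMM factors (-0.54, adjusted p = 0.0295), edgeR, DESeq2 and totals without miR-128. Without PV replicate 2 the count of let-7 names higher was 0, and without PV replicate 1 or Camk2a replicate 1 it was 1. let-7i had 2007 ± 264 RPM in PV cells, against 6987 ± 651 RPM in Camk2a cells (-1.80, adjusted p = 2.26e-07), and let-7b had 3540.5 ± 663 RPM in PV cells, against 10631 ± 1131 RPM in Camk2a cells (-1.59, adjusted p = 2.99e-06). let-7g had 18009 ± 1606 RPM in PV cells, against 12065 ± 1078 RPM in Camk2a cells (0.58, adjusted p = 0.0152), but missed the threshold with TMM factors (0.44, adjusted p = 0.0737), without PV replicate 2 (0.49, adjusted p = 0.13) and without Camk2a replicate 1 (0.53, adjusted p = 0.0511).

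Other families are given by their counts, to be read against the 21.5% of all tested names that were higher and the 22.4% that were lower. The miR-15/16 list had 1 of 12 names higher and 2 lower (miR-16 and miR-497, median -0.44), with miR-16 at 3701 ± 1027 RPM in PV cells, against 8491 ± 326 RPM in Camk2a cells (limma adjusted p = 0.000405). The miR-26 list had 1 of 5 lower, miR-26a, with 16432 ± 2851 RPM in PV cells, against 33504 ± 6686 RPM in Camk2a cells (adjusted p = 0.000696). The list of miR-28, miR-151 and miR-708, grouped by likeness of sequence, had 2 of 6 names higher and 4 lower: miR-28 was higher (70.2 ± 19.3 RPM in PV cells, against 19.9 ± 4.25 RPM in Camk2a cells, adjusted p = 8.4e-05) and miR-708 lower (1153 ± 253 RPM in PV cells, against 3893 ± 423 RPM in Camk2a cells, adjusted p = 2.17e-05). The list of miR-99, miR-100 and miR-125 had 4 of 11 names lower and 0 higher (median -0.57). The lower ones were miR-100, miR-99a, miR-99b and miR-99b*. The abundant miR-125b-5p did not pass (7223 RPM in PV cells, against 8669 RPM in Camk2a cells, adjusted p = 0.488). Nor did miR-125a-5p (2287 RPM in PV cells, against 2128 RPM in Camk2a cells, adjusted p = 0.770). The miRNAs of the Sfmbt2 intron, a rodent repeat-derived cluster, had 14 of 41 names higher and 0 lower (median 1.08). With names of equal reads in every library counted once, 34 remained, of which 11 were higher. Names with nearly equal reads still count apart in this. The count of names higher was 9 without PV replicate 1, 7 without PV replicate 2, and 1 when a mean of at least 10 RPM was required. They summed to 168 ± 7.67 RPM in PV cells, against 69.9 ± 10.3 RPM in Camk2a cells.

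**Figure D4:**
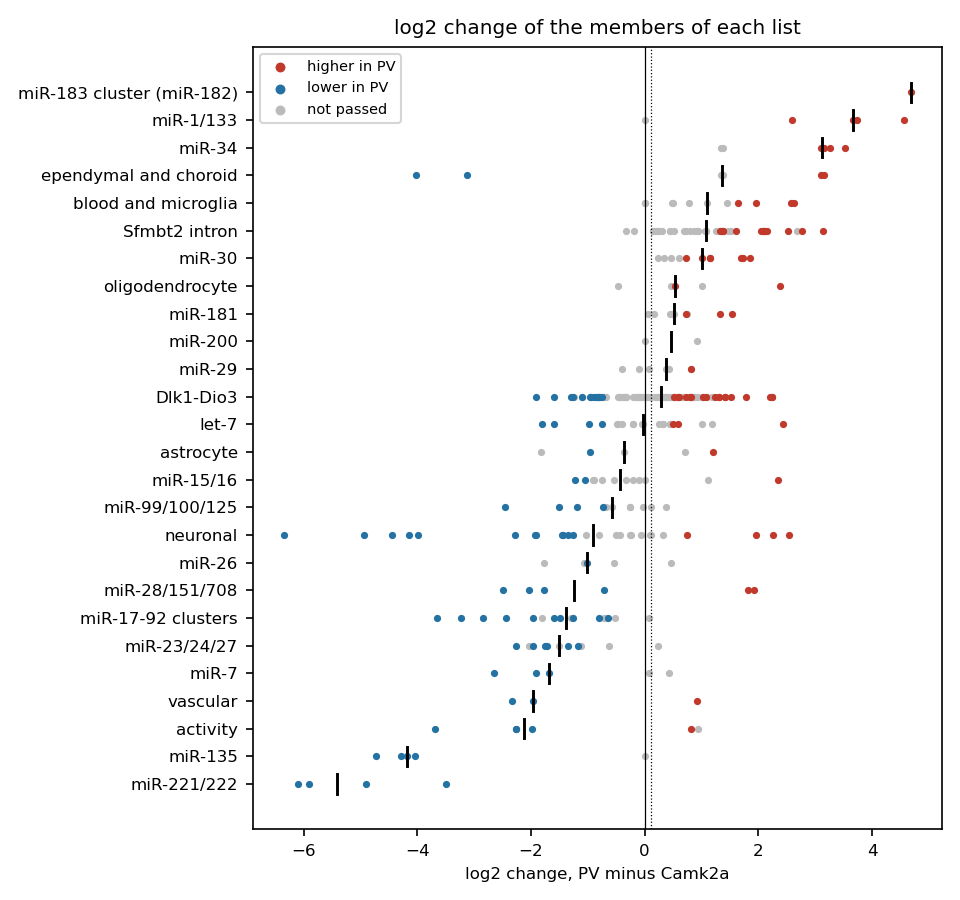
log2 change (PV minus Camk2a, horizontal axis) of each tested member of 26 lists, red for higher, blue for lower and grey for not passed, with a black bar at each list's median. The solid line marks 0 and the dotted line the median of all tested names, 0.11; the lists of miR-221 with miR-222 and of miR-135 lie lowest, and among lists of more than 1 member those of miR-1 with miR-133 and of miR-34 lie highest.

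The imprinted Dlk1-Dio3 domain of chromosome 12, a large miRNA cluster of the mouse, held calls in both directions, with the share higher near that of all tested names. Of its 93 names 18 were higher and 12 lower, against 21.5% and 22.4% of all tested names (median log2 change 0.29; 12 higher and 17 lower with totals without miR-128). Its sum did not separate the classes, with 7.07% ± 0.525 of reads in PV cells and 7.62% ± 0.722 in Camk2a cells. At the widest spacing, 90802 bases (GRCm38) from one hairpin's start to the next, its hairpins were divided into a group near Dlk1 and a group farther on, a division made after the values were seen and given with no test. No hairpin position was matched for 8 names, among them miR-666-5p and miR-666-3p with the largest increases of the domain (log2 change 2.25 and 2.24, limma adjusted p = 0.00158 and 0.000308), and these are in neither group. In the nearer group, which holds miR-433, 7 of 27 names were higher and 1 lower, and it took 2.59% and 2.64% of PV reads, against 1.56% to 1.70% in Camk2a libraries. In the farther group 9 of 58 names were higher and 11 lower, and it took 4.08% and 4.78% of PV reads, against 5.44% to 6.73% in Camk2a libraries. Of its members miR-376c had 212 ± 9.04 RPM in PV cells, against 794 ± 29.4 RPM in Camk2a cells (-1.91, limma adjusted p = 3.24e-07).

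Lists of markers of other cells were summed in each library and set beside whole neocortex. Their counts of called names are to be read against 21.5% higher and 22.4% lower among all tested names. The vascular list (2 arms of miR-126, and miR-143) summed to 295 and 330 RPM in PV libraries, against 934 to 993 RPM in Camk2a libraries and 7841 to 8178 RPM in whole neocortex. Of its 3 names 2 were lower and 1 higher: miR-143 of smooth muscle had 94.5 ± 10.4 RPM in PV cells, against 49.8 ± 7.34 RPM in Camk2a cells (limma adjusted p = 0.000355). The blood and microglia list summed to 262 and 247 RPM in PV libraries, against 45.6 to 55.0 RPM in Camk2a libraries and 1814 to 4059 RPM in whole neocortex, and 4 of its 11 names were higher (median 1.10). In PV libraries 224 and 217 RPM of that sum were miR-486. Of the list 2 names were at 0 in PV libraries and 3 in Camk2a libraries, and miR-451 of red cells had 17.3 ± 3.64 RPM in PV cells, against 10.0 ± 2.08 RPM in Camk2a cells and 2430.5 ± 1126 RPM in whole neocortex (adjusted p = 0.0607). The oligodendrocyte list summed to 1114 and 907 RPM in PV libraries, against 667 to 799 RPM in Camk2a libraries and 2155 to 3401 RPM in whole neocortex, with 2 of 5 names higher and 0 lower (1 higher and 1 lower with TMM factors). Of these miR-219-5p was at 10.0 ± 0.319 RPM in PV cells, against 1.88 ± 0.430 RPM in Camk2a cells (adjusted p = 3.26e-05), while miR-338-3p had 961 ± 149 RPM in PV cells, against 658 ± 73.8 RPM in Camk2a cells (0.54, adjusted p = 0.0211). The call of miR-338-3p failed with TMM factors (0.41, adjusted p = 0.134), without PV replicate 1 (adjusted p = 0.237) and without Camk2a replicate 1 (0.0654) or replicate 2 (0.0584). The ependymal and choroid list summed to 118 and 136.6 RPM in PV libraries, against 73.1 to 99.4 RPM in Camk2a libraries and 97.4 to 124.8 RPM in whole neocortex, so 1 PV library lay within the range of neocortex and 1 above it. Of its 6 names 2 were higher (miR-34b-5p and miR-34c, also in the miR-34 list) and 2 lower (both arms of miR-204), and 0 were at 0 in all libraries of a class. The astrocyte list, whose miR-21 and miR-22 many cells carry, summed to 22807 and 23200 RPM in PV libraries, against 26490 to 29285 RPM in Camk2a libraries and 52092 to 68784 RPM in whole neocortex. Of its 5 tested names 1 was higher (miR-21) and 1 lower (miR-22*), or 2 lower with TMM factors. The part of other cells in the differences above was not tested.

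Some calls were lost with 1 library left out. With 1 PV library left the standard error is wider, so a call can be lost while the change stays alike. miR-182 of the miR-183 cluster, a miRNA of sensory organs, had 90.2 and 2.71 RPM in PV libraries, against 0.388, 0.546 and 0.662 RPM in Camk2a libraries. It passed (log2 change 4.68, limma adjusted p = 0.00113), but without PV replicate 1 the change was 2.18. With the PV and Camk2a libraries alone in the fit the adjusted p was 0.0522. Besides let-7g and miR-338-3p above, let-7e and miR-99b* missed the threshold without PV replicate 1. Their log2 changes were then -0.53 and -1.05, against -0.75 and -1.19 with all libraries. Likewise miR-99b (-0.64, against -0.73) and miR-669c (1.17) missed it without PV replicate 2. miR-30d* missed it without either, at 1.13 and 1.17, against 1.15 with all libraries.

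The ratio of the 2 arms of a hairpin, which does not depend on scaling, was compared for 159 hairpins. It differed for 24 (15.1%), with the minor arm's share higher in PV cells for 16 (10.1%) and lower for 8 (5.03%). For miR-374, miR-374* made up 32.2% and 30.4% of the hairpin's reads in PV libraries, against 6.03%, 6.54% and 6.12% in Camk2a libraries (log2 change of the ratio 2.77 ± 0.43 SE, limma adjusted p = 0.000457). There the major arm was lower in PV cells, with 23.2 ± 3.33 RPM in PV cells and 106 ± 6.54 RPM in Camk2a cells, while miR-374* did not pass (adjusted p = 0.257). The next by size were miR-92b, miR-7b, miR-221 and let-7g, at 2.48, 2.36, 2.24 and 2.16. In these 4 the minor arm was thin, with 3 or fewer reads in at least 1 library of miR-92b, miR-221 and let-7g. Without PV replicate 1 their changes were 2.70, 2.87, 1.91 and 2.08 in that order. Without PV replicate 2 they were 2.25, 1.84, 2.57 and 2.25. These calls did not hold with 1 PV library left, where the standard error is also wider. Each call was lost as well without at least 1 of the Camk2a libraries. miR-300* (11.2% and 11.8% in PV libraries, against 2.26%, 3.02% and 3.63% in Camk2a libraries) and miR-99a* (5.92% and 6.18% in PV libraries, against 1.71%, 1.56% and 1.91% in Camk2a libraries) rested on at least 562 minor-arm reads in each library.

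The hairpin of miR-132 showed both arms at high depth, which does not lessen the limit of 2 PV libraries. Whether its call holds with 1 library left out is not given here. miR-132 made up 45.5% and 46.0% of its reads in PV libraries, against 24.6%, 18.3% and 29.4% in Camk2a libraries, the rest being miR-132* (log2 change of the ratio 1.43 ± 0.35 SE, limma adjusted p = 0.0171). Both arms were lower in PV cells, as given above, and miR-132* by more. Among the 8 hairpins called lower, the largest decreases were those of miR-670, miR-34b, miR-34c, miR-324 and miR-219. Their log2 changes of the ratio were -2.08, -1.73, -1.60, -1.45 and -1.35. miR-350 (-2.06) and miR-345 (-1.86) did not pass. miR-34c* overlapped between the classes, with 0.735% and 1.35% in PV libraries, against 2.299%, 1.27% and 6.25% in Camk2a libraries. Of the 8 lower hairpins 4 (miR-670, miR-34b, miR-34c and miR-219) had under 20 minor-arm reads in at least 1 library, and all 8 calls were lost without PV replicate 1 and likewise without PV replicate 2. Without these libraries 3 and 4 hairpins were called higher. miR-124*, at 0.0225% and 0.0220% of its hairpin's reads in PV libraries, against 0.0520%, 0.0558% and 0.0514% in Camk2a libraries, rested on at least 808 reads (adjusted p = 0.0171).

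**Figure D5:**
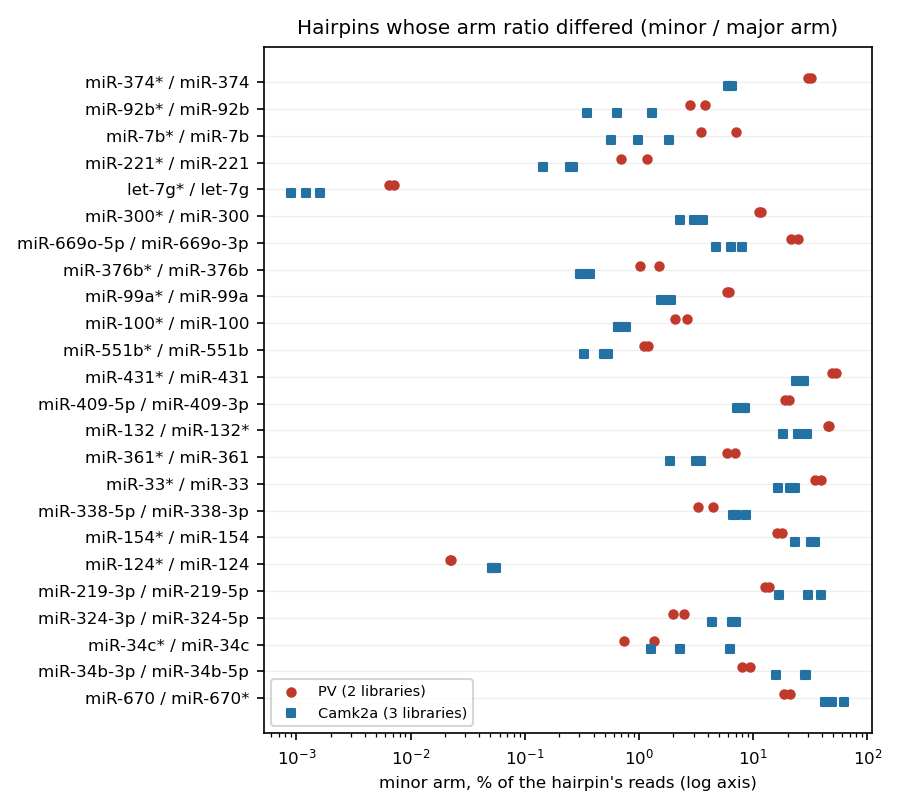
Share of the minor arm in the reads of its hairpin (percent, log axis) in each PV library (red) and Camk2a library (blue) for the 24 hairpins whose arm ratio differed, named as minor / major arm and ordered by change. The upper 16 have a higher minor-arm share in PV libraries and the lower 8 a lower one.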

How the data were processed

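The deposited values are a signal per miRNA name, scaled by the authors to a common total. Per the file headers that total is 1000000 reads, yet each library summed to 10000000, and values were therefore divided by 10 and are given as RPM. The submitters' processing notes name Bowtie and mm9; versions are not given in the sources used here. Per the labels, RNA of 19 to 24 nt was sequenced. At least 99.05% of values per library came out as whole reads (within 0.011 deposited units); Neocortex replicate 3 held too few low values to check this recovery and entered no count test.

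Libraries were grouped by title. limma 3.58.1 (R 4.3.3, trend) was fitted to log2(value + 1) of deposited values with 7 group means over 19 libraries, so that all groups share 1 spread, for names at 1 or more in 2 libraries (522). Folds are on that scale and understate changes of low miRNAs. Arm ratios used log2((minor + 0.5)/(major + 0.5)) of recovered reads, where arms summed to 20 or more in 2 libraries and averaged 5 or more each. Both tests were tried on simulated data. Named were the 12 highest and 12 lowest calls of 100 RPM or more without overlap, with their other arms and seed mates. Up to 4 called members per list of 10 RPM or more and uncalled members of 1000 RPM or more were added. So were the 10 most abundant and the 5 extreme called arm ratios each way. Not all names chosen by these rules are given with values above, among them miR-22, miR-376a, let-7c and let-7f. Other names were chosen after their values were seen. The members and lists were chosen with earlier results of these data known. Positions and sequences come from RefSeq and GENCODE M21 (GRCm38). Alternatives were edgeR 4.0.16 and DESeq2 1.42.0 on recovered reads of 18 libraries (without Neocortex replicate 3), TMM factors, other pseudocounts and filters, fewer libraries, and totals without miR-128, the last chosen after seeing the data.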

Additional observations from a re-analysis of the deposited data

How the results depend on the processing

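The numbers of miRNAs higher and lower in PV cells stayed within 1.5 times 112 and 117 under every alternative run: higher from 78 to 140 and lower from 96 to 154, with 122 and 154 in edgeR and 262 in both directions together in DESeq2. Leaving out 1 library gave 78 to 109 higher and 96 to 116 lower. Deviations from the class mean had correlations of 0.062 and 0.091 between same-numbered libraries (2 pairs). With 2 PV libraries the deviations of 1 mirror those of the other, so these values cannot show whether replicate numbers are paired. With the replicate number as a block 113 were higher and 120 lower. Arm ratios depended on the libraries: leaving out 1 gave 3 to 13 higher and 0 to 4 lower. With at least 50 reads per arm 5 were lower, and with the replicate block 3 were lower. No named miRNA that had passed reversed direction. For named miRNAs that had not passed, the direction was not compared between settings. Where 1 PV library is left, it is assumed to vary like the other groups, and the standard error is wider. Depth was 10309027 reads or more, and chi-square divided by its degrees of freedom, near 1 if replicates varied by counting alone, was 189.7 between PV libraries and 209.7 to 426.1 between Camk2a libraries.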

Other observations

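Some miRNAs not described above also differed, of which miR-33 and miR-574-5p were chosen after their values were seen. miR-33, which lies in a sterol regulator gene in mammals and represses cholesterol export, had 5.59 and 6.29 RPM in PV libraries, against 73.4, 134 and 82.4 RPM in Camk2a libraries (log2 change -3.95, limma adjusted p = 7e-07). Gad2 cells had 41.7 ± 11.4 RPM of it, and PV cells were lower than these (adjusted p = 0.000114). miR-574-5p had 14.1 and 18.5 RPM in PV libraries, against 0.485, 0.390 and 0.662 RPM in Camk2a libraries (4.75, adjusted p = 0.000104), and did not differ at the threshold from Gad2 cells (41.9 ± 5.15 RPM, adjusted p = 0.281). miR-204, which sits in Trpm3 and marks choroid plexus, had 8.10 and 6.99 RPM in PV libraries, against 72.7, 50.4 and 78.9 RPM in Camk2a libraries (-3.12, adjusted p = 1.44e-07). SST cells had 127.8 ± 1.76 RPM of miR-204, the highest of these neocortical classes, and PV cells were lower than these (-4.07, adjusted p = 1.3e-08). miR-151-5p, in the list with miR-28, had 277 and 371 RPM in PV libraries, against 1054, 1512 and 1399 RPM in Camk2a libraries (-2.03, adjusted p = 5.94e-08).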
